A study of Mus musculus with 14 samples.

Results

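Ribosome biogenesis and nucleolar genes were followed across bulk RNA sequencing of mouse gastric tumours. The set held 48 genes chosen by name from the nucleolar ribosome assembly pathway, out of 24421 entries in the count tables. The rule used no measured value, but the genes were chosen with earlier results of these data known, so the set received no test. All 48 genes were found, and all 48 passed the filter on low counts in every comparison. The tumours formed 4 groups of 3 libraries, namely orthotopic TMPC, subcutaneous TMPC, subcutaneous TMP and subcutaneous TM. Orthotopic means transplanted into the organ of origin, and subcutaneous means transplanted under the skin. TM, TMP and TMPC are the labels' own names, and no label gives their meaning, the host strain, an allele or the number of cell clones behind a group. All 12 tumours were transplants taken 2 months after transplantation, with about 1 cm3 of tissue used for each library. The labels are silent on whether the tumours of a group grew in different mice, so each p-value reflects only the spread between the sequenced libraries, which could be technical. The TM tumours serve in 2 comparisons, and the subcutaneous TMPC tumours in 3, so these comparisons are not independent of each other.

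Ribosomes are assembled in the nucleolus, where RNA polymerase I transcribes the precursor of the large ribosomal RNAs. Small nucleolar RNPs modify that precursor, with box C/D particles methylating riboses and box H/ACA particles converting uridines to pseudouridine. Large sets of assembly factors then cleave and fold the RNA onto ribosomal proteins, giving a small and a large subunit that are exported to the cytoplasm. Growing tissues, including tumours, are known for high output of this pathway, and many of its genes are textbook targets of the Myc-Max dimer. The 48 genes comprised 4 of RNA polymerase I transcription, 3 abundant nucleolar proteins, 4 box C/D proteins, 3 box H/ACA proteins, 15 small subunit assembly factors and 19 large subunit assembly factors.

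A feature that the choice of genes did not use is the sequence near the gene start. RefSeq promoter windows of the GRCm38.p6 build, each running from 250 bases before to 50 bases after a gene start, existed for 42 of the 48 genes and gave 51 windows. The letters CACGTG, the palindromic E-box bound by the Myc-Max dimer, stood in 8 of the 51 windows (15.7%), against 2349 of 32851 windows of all genes (7.15%). The variant E-box, CACGCG or on the other strand CGCGTG, stood in 15 of 51 windows (29.4%), against 3045 of 32851 (9.27%). Windows with CACGTG belonged to 8 of the 42 genes and those with the variant to 13, since a gene can have several windows. The windows of all genes were not matched to the set in base composition, and neither difference was tested. Both orientations of the variant overlap where CACGCG is followed by TG. A match is a description of letters, and a window with no match says nothing about binding. The stretches printed next show the matched E-box in capitals with its flanks, 5′ to 3′ on the strand of the gene. They were chosen because the match lies upstream of the gene start and because they come from several assembly roles.
Imp4: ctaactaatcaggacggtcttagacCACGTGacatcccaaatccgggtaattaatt
Nop2: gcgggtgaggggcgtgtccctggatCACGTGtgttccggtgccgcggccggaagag
Mybbp1a: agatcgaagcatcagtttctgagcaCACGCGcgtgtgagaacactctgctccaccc
Bysl: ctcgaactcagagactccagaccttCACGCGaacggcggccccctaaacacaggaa
Nip7: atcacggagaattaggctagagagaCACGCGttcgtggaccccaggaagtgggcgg
Nolc1: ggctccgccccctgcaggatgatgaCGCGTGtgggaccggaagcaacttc

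The Imp4 stretch is chr1:34439683-34439738 on the plus strand, with its E-box starting 121 bases before the gene start. The Nop2 stretch is chr6:125131798-125131853 on the plus strand, with the E-box 60 bases before the start. The variant lies 115 bases before the start of Mybbp1a (chr11:72441187-72441242, plus strand). It lies 129 bases before the start of Bysl (chr17:47611591-47611646, minus strand). For Nip7 (chr8:107056811-107056866, plus strand) the distance is 41 bases, and for Nolc1 (chr19:46075797-46075846, plus strand) it is 25 bases.

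Libraries held between 16584781 and 21107310 counts. Replicate 2 of the TM group stood apart: the summed level of 10 epithelial markers was 279.7 CPM (read counts scaled to a common library total), against 4876 and 5264 CPM in the other TM tumours, and that of 13 leukocyte and myeloid markers was 11809 CPM, against 4142 and 4008 CPM. Subcutaneous TMPC replicate 1 had 1268 CPM of the epithelial markers, against 3144 and 4397 CPM in its group. Its leukocyte and myeloid markers summed to 1669.6 CPM, against 915 and 1122 CPM. The female-expressed RNA Xist had 189 to 1435 CPM in TM tumours and at most 13.4 CPM in every other library, so a difference in the animals behind the TM tumours cannot be told apart from the difference between groups. Replicate 3 of the orthotopic TMPC group had 3039 CPM of the liver gene Alb, against at most 4.21 CPM in any other library. Gastric markers were present in orthotopic tumours, where Gkn1 had 1324 to 1958 CPM, while Gkn1, Gkn2, Cldn18 and Tff1 were each at 1.44 CPM or less in all 9 subcutaneous tumours. Tff2 had 436, 423 and 328 CPM in orthotopic TMPC and 17.6, 0.0 and 8.94 CPM in TM tumours. Muc1, a mucin on the same list of 13 that other epithelia also express, had 278, 331 and 165 CPM in orthotopic TMPC and 405, 9.11 and 538 CPM in TM tumours, where the whole list summed to 439.9, 10.6 and 563 CPM. No 2 libraries of a group were copies of each other, with chi-square values per degree of freedom from 28.4 upward.

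The 48 genes were high in subcutaneous TMPC and TMP tumours and low in orthotopic TMPC and TM tumours. Summed over the 48 genes, the level was 3717, 4555 and 6038 CPM in orthotopic TMPC tumours, 11790.3, 11600.2 and 13634 CPM in subcutaneous TMPC tumours, 12941, 10125 and 9662 CPM in TMP tumours and 5472, 3529.6 and 5446 CPM in TM tumours. Every subcutaneous TMPC and TMP library was above every orthotopic TMPC and TM library. Nucleolin, nucleophosmin and Nolc1 together made up 3751 of the mean of 10909 CPM in TMP tumours and 1582 of 4816 CPM in TM tumours, so the sum, which is not per length, leans on them.

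**Figure D1:**
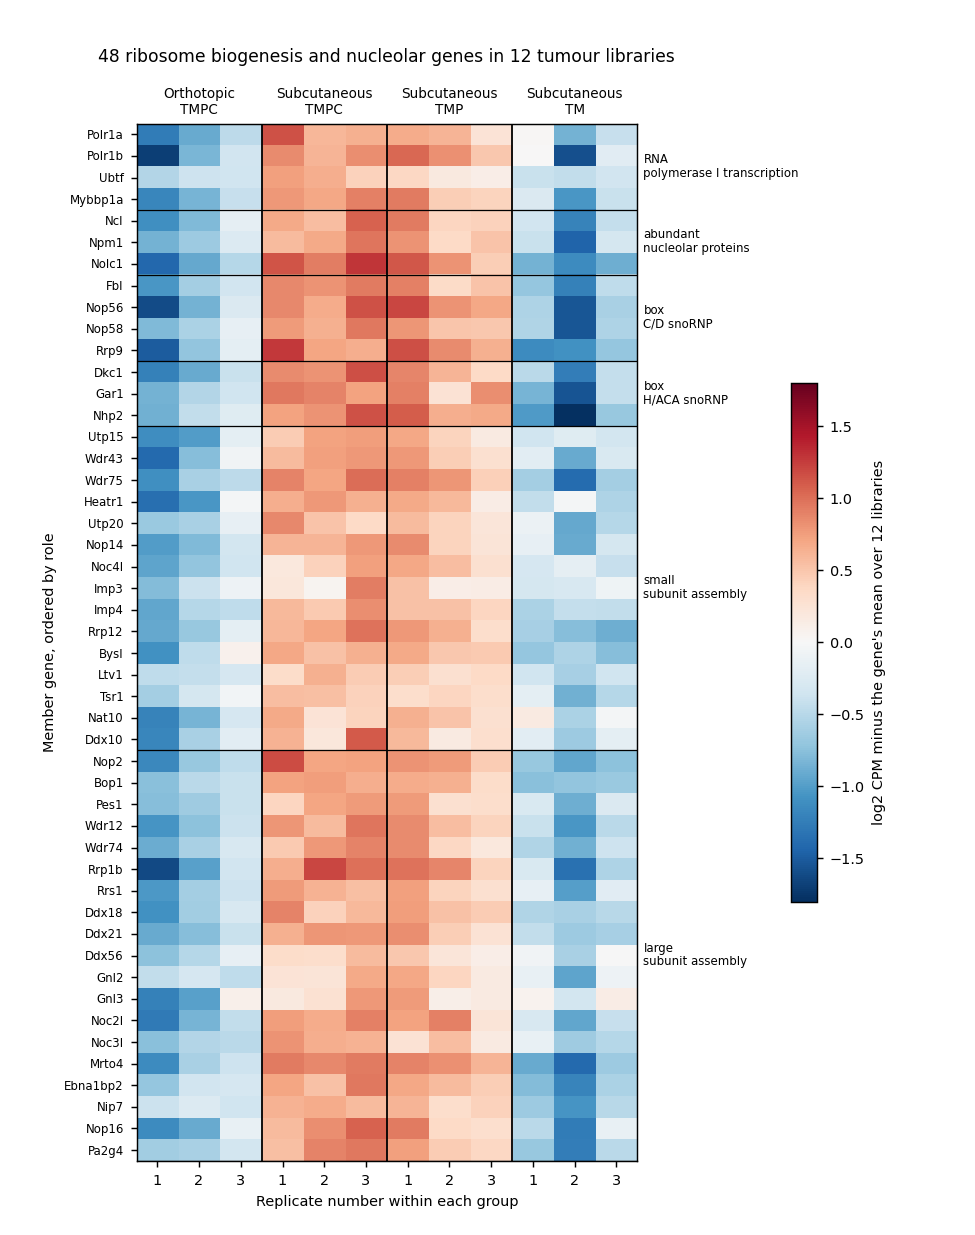
Levels of the 48 genes in 12 libraries. Each row is a gene, ordered by role, each column a library, and the colour is the log2 CPM minus that gene's mean over the 12 libraries, with red above and blue below the mean. The 6 columns of subcutaneous TMPC and TMP tumours are red over nearly the whole height, and the columns of orthotopic TMPC and TM tumours are mostly blue, with replicate 3 the palest of the orthotopic columns and replicate 2 the darkest of the TM columns.

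Single libraries carried much of the spread within groups. Orthotopic replicate 3 was the highest of its group for 46 genes, with Gnl2 and Nip7 the exceptions, and orthotopic replicate 1 was the lowest for 47. TMP replicate 1 was the highest of its group for 44 genes, with Imp4, Tsr1, Noc2l and Noc3l the exceptions. TM replicate 2 was the lowest of its group for 39 genes, yet the highest for Utp15, Heatr1, Noc4l, Imp4 and Bysl. In the subcutaneous TMPC group, replicate 3 was the highest for 28 genes, replicate 1 for 14 and replicate 2 for 6. The median coefficient of variation over the 48 genes was 23.6% in orthotopic TMPC, 13.1% in subcutaneous TMPC, 16.4% in TMP and 22.5% in TM tumours. The steadiest genes were Nip7 in orthotopic TMPC (5.5%), Mrto4 in subcutaneous TMPC (2.73%), Tsr1 in TMP (2.99%) and Bop1 in TM tumours (3.0%). Gnl3 varied most in orthotopic TMPC (51.6%) and in TMP (27.2%), Imp3 in subcutaneous TMPC (33.8%) and Polr1b in TM (48.3%).

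Among the genes of RNA polymerase I transcription, Polr1a (chr6:71909053-71984935, plus strand) encodes the largest subunit of the polymerase. Polr1a had 37.6, 48.3 and 64.8 CPM in orthotopic TMPC tumours, 199, 136 and 140.1 CPM in subcutaneous TMPC tumours, 143, 138 and 107 CPM in TMP tumours and 91.2, 49.9 and 67.6 CPM in TM tumours. Ubtf (chr11:102304560-102319742, minus strand), the factor that binds ribosomal DNA repeats and keeps them open, had 139, 155 and 157 CPM in orthotopic TMPC, 335, 316 and 268 CPM in subcutaneous TMPC, 259, 226 and 218 CPM in TMP and 152, 148 and 158 CPM in TM tumours. Ubtf was the one gene of this role whose subcutaneous TMPC libraries all lay above its TMP libraries, and its TMP libraries all lay above its TM libraries. Polr1b, which forms the catalytic core with Polr1a, ranged over 19.3 to 49.1 CPM in orthotopic TMPC, 95.5 to 112 CPM in subcutaneous TMPC, 86.9 to 127 CPM in TMP and 20.8 to 62.8 CPM in TM tumours. Mybbp1a, a nucleolar protein that binds Myb, ranged over 152 to 257 CPM in orthotopic TMPC, 555 to 647 CPM in subcutaneous TMPC, 454 to 659.8 CPM in TMP and 166 to 286 CPM in TM tumours. For both, subcutaneous TMPC and TMP libraries overlapped and stood clear of the other 6.

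The abundant nucleolar proteins bind pre-ribosomal RNA and act as its chaperones. Nucleolin, Ncl (chr1:86344719-86359400, minus strand), had 549, 676 and 1055 CPM in orthotopic TMPC, 1896, 1738 and 2449.8 CPM in subcutaneous TMPC, 2249, 1532 and 1575 CPM in TMP and 927, 509.7 and 873 CPM in TM tumours. Nucleophosmin, Npm1 (chr11:33152287-33163206, minus strand), had 628, 719 and 949 CPM in orthotopic TMPC, 1674, 1808 and 2192 CPM in subcutaneous TMPC, 1966, 1449 and 1609.8 CPM in TMP and 854, 416 and 909 CPM in TM tumours. For both genes the lowest TM value was that of replicate 2, and the groups of high and low tumours did not overlap. The level of Npm1 is uncertain, since how reads shared with near-identical copies were counted is not given in the sources used here. Nolc1 (chr19:46075863-46085530, plus strand), a chaperone of small nucleolar RNPs, had 61.8, 87.4 and 116 CPM in orthotopic TMPC, 362, 312 and 404 CPM in subcutaneous TMPC, 359, 290.5 and 224 CPM in TMP and 91.3, 75.6 and 89.8 CPM in TM tumours. Its 3 TM values lay within a narrow range, replicate 2 included.

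Of the box C/D proteins, fibrillarin, Fbl (chr7:28169710-28179269, plus strand), is the methyltransferase of the particle. Fbl had 80.4, 109 and 131 CPM in orthotopic TMPC, 302, 292 and 318 CPM in subcutaneous TMPC, 311, 212 and 238 CPM in TMP and 103, 71.9 and 121 CPM in TM tumours. Rrp9, a protein of the particle that guides early cleavages (chr9:106475963-106485424, plus strand), had 16.4, 28.2 and 41.2 CPM in orthotopic TMPC, 112, 76.1 and 72.7 CPM in subcutaneous TMPC, 104, 83.9 and 72.2 CPM in TMP and 21.1, 21.8 and 28.7 CPM in TM tumours. Both genes separated the 6 high from the 6 low libraries without overlap. The core proteins Nop56 and Nop58 had 74.6 to 189 CPM and 115 to 181 CPM in orthotopic TMPC, and 362 to 502 CPM and 312 to 388 CPM in subcutaneous TMPC tumours. In TMP tumours Nop56 had 368 to 523 CPM and Nop58 280.2 to 347 CPM, against 78.4 to 155 CPM and 68.9 to 138 CPM in TM tumours.

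Of the box H/ACA proteins, Dkc1 (chrX:75095854-75109777, plus strand) is the pseudouridine synthase. Dkc1 had 52.9, 65.3 and 92.3 CPM in orthotopic TMPC, 219.8, 215 and 274 CPM in subcutaneous TMPC, 226, 187 and 157 CPM in TMP and 87.5, 51.7 and 91.3 CPM in TM tumours. Nhp2 (chr11:51619735-51623714, plus strand), a core protein of the same particle, had 89.6, 120.4 and 140.1 CPM in orthotopic TMPC, 271, 287 and 362 CPM in subcutaneous TMPC, 346, 256 and 262 CPM in TMP and 80.4, 44.4 and 102 CPM in TM tumours. Gar1, a further core protein, had 38.7 to 54.5 CPM in orthotopic TMPC, 115 to 134 CPM in subcutaneous TMPC, 83.4 to 131 CPM in TMP and 23.7 to 51.7 CPM in TM tumours. For all 3 genes every orthotopic TMPC and TM library lay below every subcutaneous TMPC and TMP library.

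**Figure D2:**
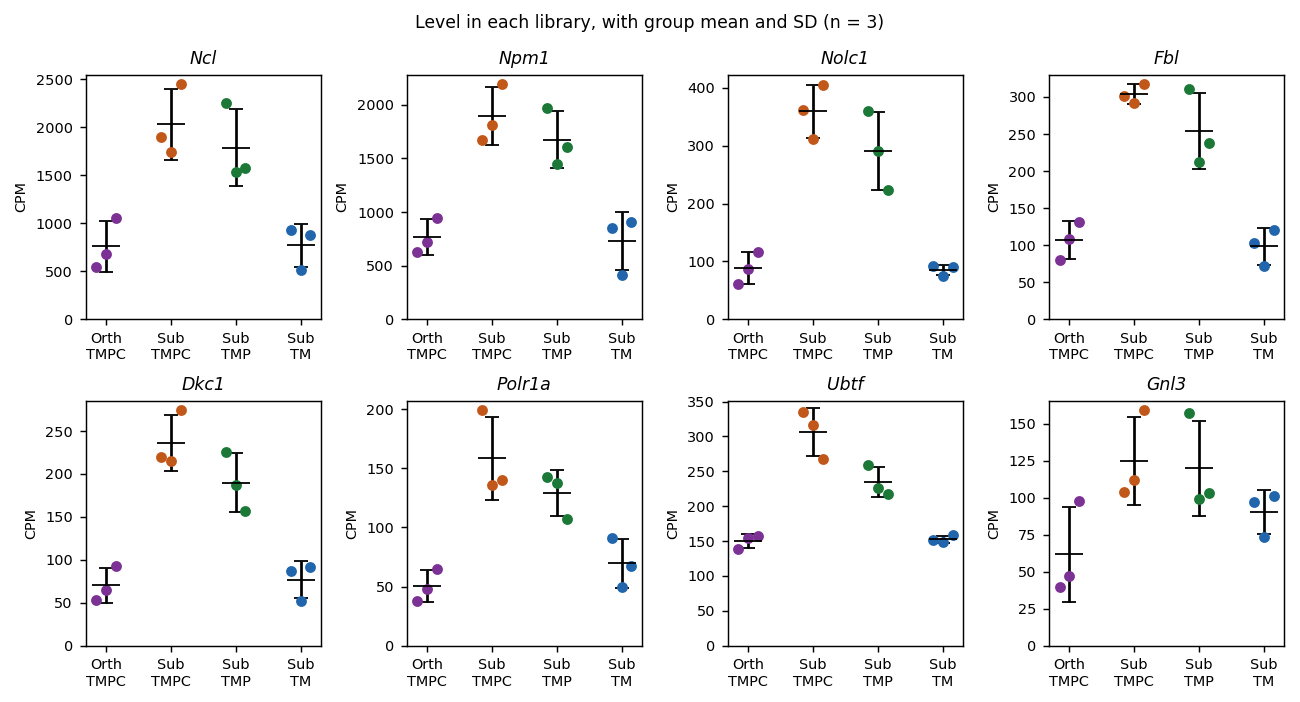
Level in CPM of 8 genes in each library, with each group's mean (horizontal line) and SD (bars, n = 3). Points are single libraries, with orthotopic TMPC at the left, then subcutaneous TMPC, TMP and TM. For 7 of the genes the subcutaneous TMPC and TMP points lie above all others, while Gnl3 has overlapping groups, with 98.1 CPM in orthotopic replicate 3.

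The 15 small subunit factors include the early complex that loads onto the nascent precursor (Utp15, Wdr43, Wdr75, Heatr1), further processome proteins (Utp20, Nop14, Noc4l, Imp3, Imp4, Ddx10, Rrp12), the late factors Bysl, Ltv1 and Tsr1 and the RNA acetyltransferase Nat10. Their summed level was 523, 666 and 917 CPM in orthotopic TMPC, 1585, 1554 and 1736 CPM in subcutaneous TMPC, 1662, 1443 and 1274 CPM in TMP and 848, 678 and 793 CPM in TM tumours. Bysl (chr17:47599331-47611492, minus strand) had 20.2, 31.3 and 45.3 CPM in orthotopic TMPC, 69.6, 62.4 and 67.3 CPM in subcutaneous TMPC, 69.2, 60.1 and 59.5 CPM in TMP and 26.7, 29.3 and 25.4 CPM in TM tumours. Orthotopic TMPC and TM libraries of Bysl stayed below the rest, with orthotopic replicate 3 the highest of these. Imp3 (chr9:56937475-56938398, plus strand) had 32.9, 43.4 and 53.4 CPM in orthotopic TMPC, 65.5, 58.6 and 107 CPM in subcutaneous TMPC, 81.6, 61.7 and 62.2 CPM in TMP and 45.6, 46.4 and 53.8 CPM in TM tumours. For Imp3 the gap between the high and the low tumours was small, and subcutaneous TMPC replicate 3 was well above the other libraries.

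The 19 large subunit factors include the Pes1, Bop1 and Wdr12 complex, the helicases Ddx18, Ddx21 and Ddx56, the RNA methyltransferase Nop2 and the GTPases Gnl2 and Gnl3, as well as Wdr74, Rrp1b, Rrs1, Noc2l, Noc3l, Mrto4, Ebna1bp2, Nip7, Nop16 and Pa2g4. Their summed level was 1139.6, 1344 and 1646 CPM in orthotopic TMPC, 3243, 3414 and 3654 CPM in subcutaneous TMPC, 3528, 2969 and 2611 CPM in TMP and 1535, 1105 and 1559 CPM in TM tumours. Bop1 (chr15:76452989-76477277, minus strand) had 50.2, 60.5 and 63.6 CPM in orthotopic TMPC, 139, 142 and 133 CPM in subcutaneous TMPC, 134, 131 and 106 CPM in TMP and 50.1, 51.3 and 53.1 CPM in TM tumours. The TM values of Bop1 were nearly equal, replicate 2 included. Gnl3 or nucleostemin (chr14:31012433-31019152, minus strand) had 39.7, 47.1 and 98.1 CPM in orthotopic TMPC, 104, 112 and 159 CPM in subcutaneous TMPC, 157, 99.3 and 103 CPM in TMP and 96.9, 73.3 and 101 CPM in TM tumours. Here TMP and TM overlapped, and orthotopic replicate 3 stood near the TM tumours. Gnl2 (chr4:125016585-125055380, plus strand) had 71.3, 79.3 and 70.9 CPM in orthotopic TMPC, 115, 114 and 156 CPM in subcutaneous TMPC, 157, 127 and 109 CPM in TMP and 88.7, 50.2 and 91.1 CPM in TM tumours.

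Between TMP and TM tumours nearly the whole set was higher in TMP. Of the 48 genes 42 rose and 0 fell, where 14.3% of the 15277 genes tested rose and 13.4% fell. The median log2 fold change of the 48 genes was 1.09, or 2.12-fold, and that of all genes tested was -0.07. For 47 of the 48 genes every TMP library lay above every TM library, as it did for 28.2% of all genes, and Gnl3 was the exception. For 0 genes of the set, but 22.5% of all genes, every TMP library lay below. By role, 4 of 4 genes of RNA polymerase I transcription (median 0.97), 3 of 3 abundant proteins (1.16), 4 of 4 box C/D proteins (1.52), 3 of 3 box H/ACA proteins (1.52), 12 of 15 small subunit factors (0.78) and 16 of 19 large subunit factors (1.07) rose. With all libraries edgeR called 27.7% of all genes tested, in either direction. Without TMP replicate 1 it called 21 genes of the set and 9.8% of all genes, with a median of 0.96 for the set. Without TM replicate 2 it called 41 and 31.2% of all genes, with a median of 0.95 for the set.

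The largest log2 fold changes between TMP and TM belonged to proteins of small nucleolar RNPs and a chaperone of these particles. Nhp2 averaged 288 ± 50.4 CPM in TMP and 75.8 ± 29.3 CPM in TM tumours (SD, n = 3 each), a log2 fold change of 1.88 ± 0.30 (SE, edgeR adjusted p = 0.00517). Rrp9 averaged 86.6 ± 16 CPM in TMP and 23.9 ± 4.2 CPM in TM tumours, a log2 fold change of 1.8 ± 0.24 (edgeR adjusted p = 0.0029). Nolc1 averaged 291 ± 67.3 CPM in TMP and 85.6 ± 8.64 CPM in TM tumours, a log2 fold change of 1.71 ± 0.20 (edgeR adjusted p = 0.00219). The increases of Dkc1 (1.26 ± 0.24, edgeR adjusted p = 0.0097), Fbl (1.31 ± 0.22, adjusted p = 0.00594) and Nop58 (1.36 ± 0.26, adjusted p = 0.00972) came from the same particles. Ncl (1.16 ± 0.27, edgeR adjusted p = 0.0184) and Npm1 (1.16 ± 0.29, adjusted p = 0.0229) rose by amounts close to those of Bysl (1.16 ± 0.14, adjusted p = 0.00235) and Bop1 (1.21 ± 0.13, adjusted p = 0.00181), which had smaller errors. The polymerase genes rose by 1.19 ± 0.36 for Polr1b (edgeR adjusted p = 0.0408), 1.10 ± 0.23 for Mybbp1a (adjusted p = 0.0138), 0.85 ± 0.25 for Polr1a (adjusted p = 0.0382) and 0.56 ± 0.14 for Ubtf (adjusted p = 0.0212).

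The 6 genes that did not pass had log2 fold changes of 0.35 ± 0.24 for Gnl3 (edgeR adjusted p = 0.299), 0.42 ± 0.18 for Ddx56 (adjusted p = 0.116), 0.44 ± 0.24 for Imp3 (adjusted p = 0.205), 0.55 for Nat10, 0.64 for Ddx10 and 0.72 for Gnl2. Without TMP replicate 1, Mybbp1a, Ncl, Nop58, Npm1, Polr1a, Polr1b and Ubtf had adjusted p between 0.0502 and 0.14. Without TMP replicate 2 or 3, Npm1, Polr1a, Polr1b and Ubtf had adjusted p between 0.0509 and 0.114. Without TM replicate 3, Polr1a and Polr1b had adjusted p between 0.0638 and 0.0864, and without TM replicate 2 that of Polr1a was 0.0559.

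**Figure D3:**
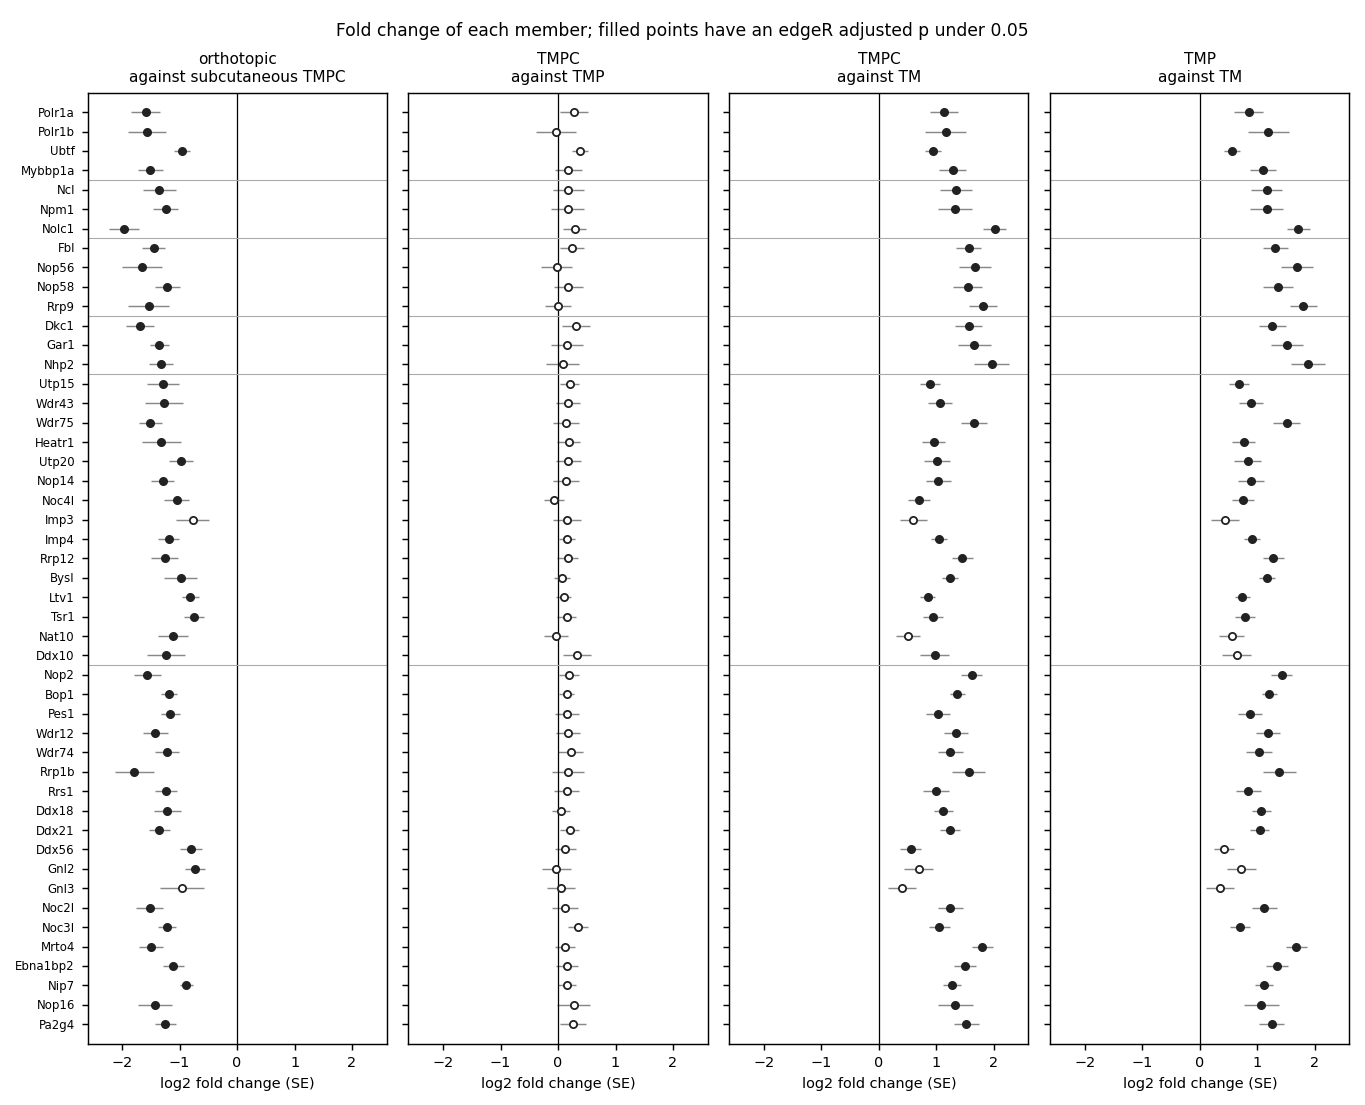
The log2 fold change of each of the 48 genes (rows, ordered by role) with its SE in 4 comparisons. Filled points have an edgeR adjusted p under 0.05. All points of orthotopic against subcutaneous TMPC lie left of 0, those of TMPC and TMP against TM lie right of 0, and those of TMPC against TMP lie between -0.07 and 0.38 with none filled.

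Between subcutaneous TMPC and TMP tumours no gene of the set passed the test. The call rate of edgeR was 0 of 48 genes, against 0.0% of the 15277 genes tested. At an unadjusted p under 0.05 there were 1 gene of the set and 465 of all genes, and DESeq2 called 0 of the set and 17 of all genes. The log2 fold change was above 0 in 43 of the 48 genes, with a median of 0.16 for the set and 0.01 for all genes. All 3 TMPC libraries lay above all 3 TMP libraries for 3 genes (Ubtf, Noc3l and Tsr1), as they did for 6.18% of all genes, and below for 0 genes of the set and 6.28% of all genes. Missing the threshold does not show that the levels were equal, and the errors per gene set the limits that follow.

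Ubtf averaged 307 ± 34.4 CPM in TMPC and 234 ± 22.1 CPM in TMP tumours (SD, n = 3 each), the largest log2 fold change of the set at 0.38 ± 0.14 (SE, edgeR adjusted p = 0.9999). Noc3l, a factor of early large subunit assembly, had 73.4, 65.4 and 64.1 CPM in TMPC and 50.2, 61.3 and 46.7 CPM in TMP tumours, a log2 fold change of 0.35 ± 0.18. Ddx10, a helicase of small subunit assembly, had 86.1, 63.9 and 120.2 CPM in TMPC and 83.6, 62.2 and 68.6 CPM in TMP tumours, with 0.33 ± 0.25. Dkc1 had 0.31 ± 0.24, Nolc1 0.29 ± 0.20, Polr1a 0.28 ± 0.25, Fbl 0.25 ± 0.21, Ncl 0.18 ± 0.27 and Npm1 0.17 ± 0.29. At the other end stood Noc4l with -0.07 ± 0.18, Nat10 with -0.04 ± 0.21 and Gnl2 with -0.03 ± 0.25. Noc4l had 60, 70.6 and 87.6 CPM in TMPC and 85.3, 77.4 and 64.6 CPM in TMP tumours, and Nat10 had 74.7, 55.1 and 61.4 CPM in TMPC and 72.6, 66.1 and 57 CPM in TMP tumours. The groups overlapped for all of these genes except Ubtf and Noc3l.

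Between subcutaneous TMPC and TM tumours 44 of the 48 genes were higher in TMPC and 0 lower, where 18.0% of the genes tested were higher and 17.8% lower. The median log2 fold change was 1.24, or 2.36-fold, beside -0.07 for all genes. For all 48 genes each TMPC library lay above each TM library, which held for 25.9% of all genes, while the opposite held for 0 genes of the set and 21.6% of all genes. All genes of the first 4 roles rose, with medians of 1.14 for RNA polymerase I transcription, 1.34 for the abundant proteins, 1.62 for box C/D and 1.66 for box H/ACA proteins. Of the small subunit factors 13 of 15 rose (median 0.97), and of the large subunit factors 17 of 19 (median 1.24). Leaving out TM replicate 2 gave 43 genes and a median of 1.13, with 40.8% of all genes called, against 35.8% with all libraries.

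Nolc1 had the largest difference between TMPC and TM, with means of 359 ± 46.1 CPM in TMPC and 85.6 ± 8.64 CPM in TM tumours (SD, n = 3 each) and a log2 fold change of 2.01 ± 0.20 (SE, edgeR adjusted p = 0.000712). Nhp2 followed with 307 ± 48.4 CPM in TMPC and 75.8 ± 29.3 CPM in TM tumours (1.96 ± 0.30, edgeR adjusted p = 0.00277). Rrp9 rose by 1.81 ± 0.24 (edgeR adjusted p = 0.00168), Gar1 by 1.66 ± 0.28 (adjusted p = 0.00424), Dkc1 by 1.56 ± 0.24 (adjusted p = 0.00296), Fbl by 1.56 ± 0.22 (adjusted p = 0.00206) and Nop58 by 1.54 ± 0.26 (adjusted p = 0.00409). The nucleolar chaperones rose by 1.34 ± 0.27 for Ncl (edgeR adjusted p = 0.00818) and 1.32 ± 0.29 for Npm1 (adjusted p = 0.0109). Bop1 (1.36 ± 0.13, edgeR adjusted p = 0.000652) and Bysl (1.23 ± 0.14, adjusted p = 0.00104) had the smallest adjusted p of their roles. Polr1b (1.16 ± 0.36, edgeR adjusted p = 0.0359), Polr1a (1.13 ± 0.25, adjusted p = 0.0111) and Ubtf (0.94 ± 0.14, adjusted p = 0.00245) rose among the polymerase genes.

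The smallest fold change that passed between TMPC and TM was that of the helicase gene Ddx56, with 69.9, 69.4 and 82.7 CPM in TMPC and 53.1, 37 and 55.2 CPM in TM tumours (0.55 ± 0.18, edgeR adjusted p = 0.0474). The genes that did not pass were Gnl3 (0.40 ± 0.24, edgeR adjusted p = 0.218), Nat10 (0.51 ± 0.21, adjusted p = 0.0929), Imp3 (0.60) and Gnl2 (0.69). Ddx56 lost its call when any 1 of the 6 libraries was left out, and Polr1b when TM replicate 3 or any TMPC replicate was left out, with adjusted p between 0.0551 and 0.124.

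Orthotopic TMPC tumours had less of nearly all 48 RNAs than subcutaneous TMPC tumours. Of the 48 genes 46 fell and 0 rose, where 13.8% of the 15123 genes tested fell. The median log2 fold change was -1.26, which is 2.39-fold lower, beside 0.05 for all genes. For all 48 genes every orthotopic library lay below every subcutaneous library, as it did for 26.5% of all genes, and above for 0 genes of the set and 22.3% of all genes. All members of the first 4 roles fell, with medians of -1.54 for RNA polymerase I transcription, -1.35 for the abundant proteins, -1.50 for box C/D and -1.35 for box H/ACA proteins, followed by 14 of 15 small subunit factors (-1.19) and 18 of 19 large subunit factors (-1.22). The count depended on single libraries, as did the share of all genes called, which was 27.8% with all libraries. Without orthotopic replicate 2 edgeR called 4 of the 48 genes and 2.51% of all genes, with a median of -1.22 for the set. Without orthotopic replicate 1 it called 28 of the 48 and 7.98% of all genes, with a median of -1.12. Without orthotopic replicate 3, the library with the liver RNA, it called 47 and 30.6% of all genes, with a median of -1.48.

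Nolc1 fell most, to a mean of 88.5 ± 27.3 CPM in orthotopic tumours, against 359 ± 46.1 CPM in subcutaneous tumours (SD, n = 3 each), a log2 fold change of -1.96 ± 0.26 (SE, edgeR adjusted p = 0.00919). Rrp1b, a nucleolar protein of large subunit assembly, had 26.2, 41.1 and 64 CPM in orthotopic and 128, 187 and 161 CPM in subcutaneous tumours, a log2 fold change of -1.79 ± 0.34 (edgeR adjusted p = 0.0159). Dkc1 followed with -1.69 ± 0.24 (edgeR adjusted p = 0.01), beside Nhp2 with -1.33 ± 0.21 (adjusted p = 0.0118) and Gar1 with -1.35 ± 0.16 (adjusted p = 0.00872). The box C/D proteins Rrp9 and Fbl fell by 1.54 ± 0.36 (edgeR adjusted p = 0.0252) and 1.45 ± 0.20 (adjusted p = 0.00948) on the log2 scale. Among the polymerase genes the log2 fold change was -1.59 ± 0.25 for Polr1a (edgeR adjusted p = 0.0115), -1.56 ± 0.33 for Polr1b (adjusted p = 0.0201), -1.51 ± 0.22 for Mybbp1a (adjusted p = 0.0103) and -0.96 ± 0.14 for Ubtf (adjusted p = 0.0105). Ncl (-1.35 ± 0.29, edgeR adjusted p = 0.0216) and Npm1 (-1.24 ± 0.22, adjusted p = 0.0146) fell by similar amounts. In small subunit assembly Wdr75, with 43.9, 62.9 and 67.7 CPM in orthotopic and 175, 154 and 188 CPM in subcutaneous tumours, had the smallest adjusted p (-1.51 ± 0.20, edgeR adjusted p = 0.00919), and in large subunit assembly it was Bop1 (-1.18 ± 0.14, adjusted p = 0.00866).

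The smallest decreases in orthotopic tumours were those of Gnl2 (-0.73 ± 0.17, edgeR adjusted p = 0.0257) and of Tsr1, a GTPase-like factor of late small subunit maturation (-0.75 ± 0.17, adjusted p = 0.0238). Tsr1 had 44.7, 55.2 and 65.8 CPM in orthotopic and 100.4, 100 and 90.8 CPM in subcutaneous tumours. Imp3 (-0.77 ± 0.29, edgeR adjusted p = 0.0905) and Gnl3 (-0.96 ± 0.38, adjusted p = 0.0982) did not pass, although their groups did not overlap either. Without orthotopic replicate 2, 14 of the 17 named genes that had passed lost their call, with adjusted p between 0.0511 and 0.0817, and Bop1, Gar1 and Wdr75 kept theirs. Without orthotopic replicate 1, or without subcutaneous replicate 3, 5 of the 17 lost their call, with adjusted p between 0.0509 and 0.0816, and Gnl2, Ncl, Rrp9 and Tsr1 were among them both times. Without subcutaneous replicate 1 or 2, Rrp9 and Tsr1 had adjusted p between 0.05 and 0.0582.

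Orthotopic TMPC and TM tumours, the 2 groups with low levels, are set side by side without a test. Their summed levels averaged 4769.9 ± 1176 CPM in orthotopic TMPC and 4816 ± 1114 CPM in TM tumours (SD, n = 3 each). Role by role the means were 435 ± 89.8 CPM in orthotopic TMPC and 505 ± 108 CPM in TM tumours for RNA polymerase I transcription, and 408 ± 128 CPM in orthotopic TMPC and 366 ± 108 CPM in TM tumours for box C/D proteins. For box H/ACA proteins they were 234 ± 52.8 CPM in orthotopic TMPC and 191 ± 64.3 CPM in TM tumours. The differences between the means were smaller than the SD in each of these roles.

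Other genes of the pathway, 117 factors that are not in the set, differed in the same directions with smaller medians. Of these 81 rose and 1 fell between TMP and TM (median 0.82), 89 rose and 0 fell between TMPC and TM (median 0.98), 0 were called between TMPC and TMP (median 0.15), and 85 fell and 0 rose between orthotopic and subcutaneous TMPC (median -0.92). Rrn3, the initiation factor of RNA polymerase I, had the smallest adjusted p of 13 further polymerase I factors between TMP and TM (0.93 ± 0.14, edgeR adjusted p = 0.0042), where 8 rose. Among 14 genes of the RNA exosome, which trims precursors, 11 rose, and Exosc6 had the smallest adjusted p (1.51 ± 0.17, edgeR adjusted p = 0.00204). Ddx24, a helicase, was the 1 factor called lower in TMP than TM, with a log2 fold change of -0.87, and was named after its value was seen. Its call was lost without TMP replicate 1 and without TMP replicate 3. Without TMP replicate 1, 41 of the 117 factors rose between TMP and TM (median 0.77), and 9.8% of all genes passed, against 27.7% with all libraries. In orthotopic against subcutaneous TMPC, 2 fell without orthotopic replicate 2, 30 without orthotopic replicate 1 and 54 without subcutaneous replicate 3. The medians of these fits were -0.9, -0.82 and -0.89, in that order. Of all genes tested 2.51%, 7.98% and 13.3% passed in them, against 27.8% with all libraries.

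The genes of the cytosolic ribosomal proteins, the products that are assembled, differed less than the assembly factors. Of 76 tested, 3 rose between TMP and TM (median 0.26), 13 between TMPC and TM (median 0.38) and 0 between TMPC and TMP (median 0.15). Of all genes tested 14.3%, 18.0% and 0.0% rose in these comparisons, so none of these counts was above the share of all genes. Between orthotopic and subcutaneous TMPC 43 fell (median -0.72), where 13.8% of all genes fell. The counts changed with single libraries, while the medians stayed on the same side of 0. Between orthotopic and subcutaneous TMPC, 1 fell without orthotopic replicate 1, 0 without orthotopic replicate 2, 7 without subcutaneous replicate 2 and 2 without subcutaneous replicate 3. Between TMPC and TM, 7, 3 and 1 rose without TMPC replicate 1, 2 and 3, and 3, 8 and 17 without TM replicate 1, 2 and 3. The shares of all genes called, in either direction, were 30.0%, 21.7% and 23.9%, and 31.2%, 40.8% and 30.9%. Between TMP and TM, 0 rose without TMP replicate 1 or 3 or TM replicate 1, 1 without TMP replicate 2, and 3 without TM replicate 2 or 3. Of all genes 9.8%, 13.5% and 11.9% were called without TMP replicate 1, 2 and 3. Without TM replicate 1, 2 and 3 the shares were 23.2%, 31.2% and 23.2%. DESeq2 called 7, 22 and 68 in TMP against TM, TMPC against TM and the sites, where it called 36.8%, 43.5% and 40.5% of all genes. Their summed level was 40295, 48564 and 52834 CPM in orthotopic TMPC, 72338, 79043 and 96817 CPM in subcutaneous TMPC, 87995, 62408 and 71689.7 CPM in TMP and 60021, 45962 and 70738 CPM in TM tumours. TMP and TM tumours overlapped in this sum, unlike in the sum over the 48 genes. Whether the difference between these lists exceeds chance was not tested.

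**Figure D4:**
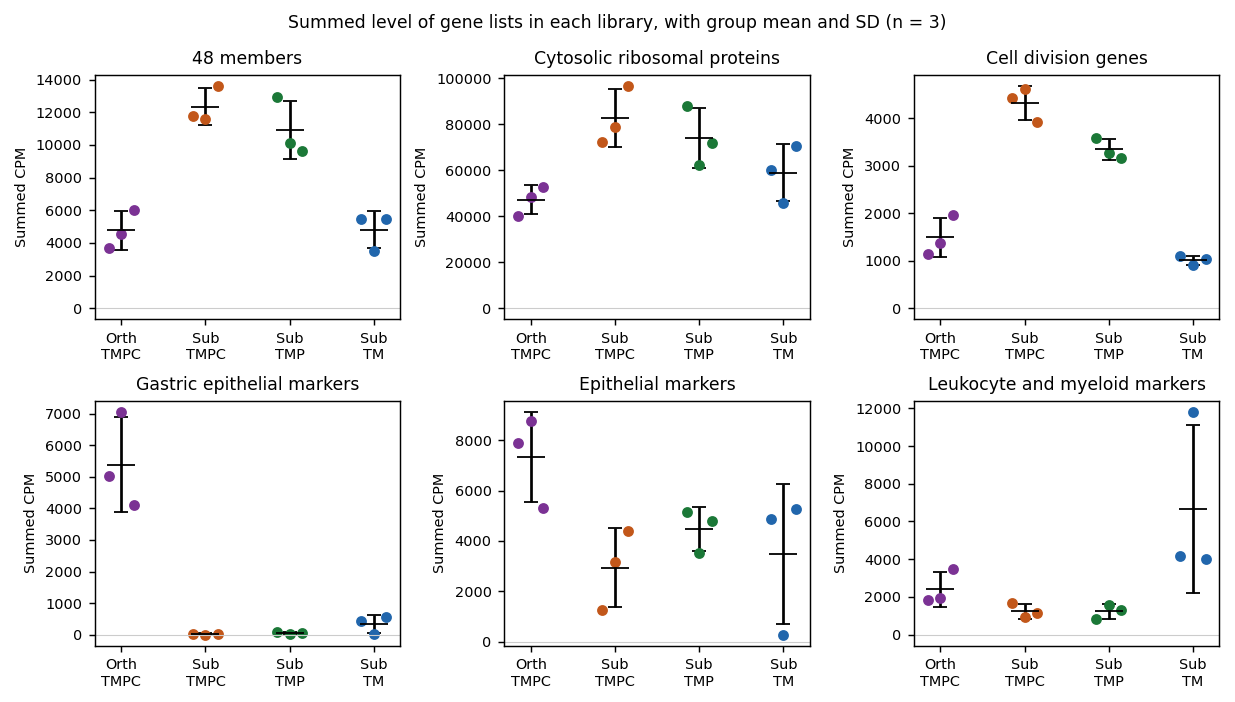
Summed level in CPM of 6 gene lists in each library (points), with group mean and SD (n = 3). The 48 genes, cell division genes and, less clearly, ribosomal protein genes are highest in subcutaneous TMPC and TMP tumours, gastric epithelial markers are highest in orthotopic tumours, and leukocyte markers peak in TM replicate 2 at 11809 CPM.

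Cell division genes differed in the same comparisons, and some lists of cell type markers did too. All 20 cell division genes were higher in TMP than in TM (median 1.67) and in TMPC than in TM (median 2.20), 0 were called between TMPC and TMP (median 0.35), and all 20 were lower in orthotopic than in subcutaneous TMPC (median -1.51). Their summed level was 1151 to 1959.5 CPM in orthotopic TMPC, 3924 to 4623 CPM in subcutaneous TMPC, 3173 to 3596 CPM in TMP and 908 to 1096 CPM in TM tumours. Without orthotopic replicate 2, 2 of the 20 were called lower, with a median of -1.41, and 2.51% of all genes passed, against 27.8% with all libraries. Of 13 leukocyte and myeloid markers 12 were lower in TMP and 12 in TMPC than in TM, with sums of 915 to 1669.6 CPM in TMPC, 809 to 1583 CPM in TMP and 4008 to 11809 CPM in TM tumours. Leaving out single libraries gave 5 to 12 lower in TMP, with 5 without TMP replicate 1, 5 without TMP replicate 3 and 11 without TM replicate 2, and 9 to 12 lower in TMPC. For TMP against TM, 9.8% of all genes passed without TMP replicate 1 and 11.9% without TMP replicate 3, against 27.7% with all libraries. DESeq2 called 8 lower in each of these comparisons.

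In orthotopic against subcutaneous TMPC tumours all 13 gastric epithelial markers were higher, with sums of 4095 to 7049.8 CPM in orthotopic and 6.75 to 38 CPM in subcutaneous tumours. Only 3 of the 13 passed the low-count filter in the fit of the subcutaneous libraries. The others were near 0 CPM in subcutaneous TMPC and passed here only through the orthotopic tumours, so the filter fixed their direction. Of the other lists 3 of 10 epithelial, 3 of 13 leukocyte and myeloid, 2 of 10 fibroblast and 1 of 6 endothelial markers were higher in orthotopic tumours, and 5 of 8 skeletal muscle markers were lower. The 3 leukocyte and myeloid calls became 0 without orthotopic replicate 2, and 1 without orthotopic replicate 1, subcutaneous replicate 2 or subcutaneous replicate 3. In these fits between 2.51% and 13.3% of all genes passed, against 27.8% with all libraries. Fibroblast markers summed to 6656, 7743 and 19504 CPM in orthotopic and 4846, 6559 and 4377 CPM in subcutaneous TMPC tumours. Liver and pancreas markers were higher for 2 of 6 tested, with sums of 67.3, 59.2 and 6084 CPM in orthotopic and 6.69 to 14.2 CPM in subcutaneous tumours, and lymphocyte and plasma cell markers for 2 of 5 tested. Of the 11 genes on the lymphocyte and plasma cell list only 5 were tested. Jchain had 1.72, 2168 and 5.55 CPM in TM and at most 0.332 CPM in TMP and subcutaneous TMPC tumours. It passed the filter only through TM tumours, so its direction was fixed. The list had 5 of 5 tested markers lower in TMPC than TM (median -6.78) and 4 of 5 lower in TMP than TM (median -5.92). Its sums were 1.13 to 3.06 CPM in subcutaneous TMPC, 1.32 to 2.8 CPM in TMP and 12.6, 2899 and 18 CPM in TM tumours, so that TM replicate 2 held nearly all of it. Of the liver and pancreas list 1 of 2 tested markers was lower in TMPC and 1 of 2 in TMP than in TM, and of the gastric list 1 of 3 was lower in TMPC than in TM. In TMPC against TM tumours 2 of 10 fibroblast and 2 of 6 endothelial markers were lower, where 17.8% of all genes tested were lower. The fibroblast count was near that share, and 0 of 10 epithelial markers were called. Of the muscle markers 3 of 8 were higher, where 18.0% of all genes were higher. In TMP against TM tumours 1 of 10 fibroblast markers was lower, near the 13.4% of all genes tested that were lower. Of the epithelial markers 0 of 10 were called, of the endothelial 0 of 6 and of the gastric 0 of 3 tested. Of the muscle markers 2 of 8 were higher, where 14.3% of all genes were higher. Muscle sums of 22, 235 and 12 CPM in TMP and 15.9, 88.5 and 16.7 CPM in TM tumours overlapped. TMP replicate 2 held most of the muscle level in TMP. The part of these cell types and of cell division in the levels of the 48 genes was not tested, and in bulk tissue fewer cells of a type and less RNA per cell cannot be told apart.

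The counting leaves some members uncertain. Whether strand was used is not given in the sources used here, and 20 of the 48 genes overlap a gene on the opposite strand in the annotation, among them Bop1, Dkc1, Gnl3, Nhp2, Polr1a and Rrp9. A further feature of the set is that 7 of its genes hold 21 small nucleolar RNA genes within their span on the annotation: 5 in Nop56, 4 in Nop58, 3 each in Gnl3, Ncl and Wdr43, 2 in Tsr1 and 1 in Dkc1. Mrto4 has 2 named pseudogenes.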

How the data were processed

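Per the labels' protocols, paired-end reads were 150 bp long. STAR 2.6.0, mm10 and DESeq2 are named, per the submitters' processing notes, while the read counter is not given in the sources used here. The authors deposited whole-number counts per gene, and beside them normalized counts, a signal scaled by a size factor per library, per the file headers. The signal served only to check names. Among the symbols of the subcutaneous libraries, 12131 of 24421 stood out of step with their counts, so symbols were taken by position from the site table. Counts then equalled signal times size factor within 0.01 reads for 48 of 48 members in each of 9 libraries, against 16 as deposited. No entry lacked a gene (0), and 0 value columns stayed unmapped. The 2 single-cell samples were not analysed here.

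Counts were tested with edgeR 4.0.16 (glmQLFit and glmQLFTest) in R 4.3.3, with limma 3.58.1 installed. TMM scaling and filterByExpr came first, and Benjamini-Hochberg adjustment covered all genes tested, at a threshold of 0.05. One fit held the 9 subcutaneous libraries, and another the 6 TMPC libraries. The SE printed with an edgeR log2 fold change is its absolute value divided by the square root of the test's F statistic. CPM values are counts scaled to a common library total, with TMM factors over the 12 libraries. Replicate groups were taken from the sample titles. Alternatives were DESeq2 1.42.0, other scalings, no filter, a replicate block, other sets of libraries and leaving out each library, with total counts as library size and TMPC against TMP without TM replicate 2 added after seeing the data. The steps were tested on simulated data. Members, roles and lists were chosen with earlier results of these data known, so no list received a test. Named members were 7 fixed genes, the smallest and largest adjusted p of each role and the 3 highest and lowest fold changes per comparison. Positions come from the GENCODE M21 annotation of mm10, and promoter windows from RefSeq on GRCm38.p6.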

Additional observations from a re-analysis of the deposited data

How the results depend on the processing

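The direction of the median over the 48 genes held under every alternative run in all 4 comparisons. Leaving out each library in turn gave 21 to 41 genes higher in TMP than TM with medians of 0.95 to 1.18, 0 genes between TMPC and TMP with medians of 0.09 to 0.31, 40 to 43 genes higher in TMPC than TM with medians of 1.13 to 1.38, and 4 to 47 genes lower in orthotopic than subcutaneous TMPC with medians of -1.48 to -1.12. Among the low counts were those without TMP replicate 1 (21) and 2 (28) and without orthotopic replicate 2 (4) and 1 (28). The cause was not tested, but all genes together lost calls too: 9.8%, 13.5%, 2.51% and 7.98% of genes tested passed, against 27.7% and 27.8% with all libraries. In TMPC against TMP, 3 log2 fold changes near 0 changed sign: Gnl2 to 0.14, Nat10 to 0.07 and Noc4l to 0.05 without TMP replicate 1, Gnl2 to 0.05 and Noc4l to 0.07 without TMPC replicate 1, and Gnl2 to 0.08 and Nat10 to 0.09 without TMPC replicate 2. Over all libraries left out, Gnl2 ranged from -0.19 to 0.14, Nat10 from -0.16 to 0.09 and Noc4l from -0.21 to 0.07. DESeq2 called 43, 0, 45 and 47 genes of the set in TMP against TM, TMPC against TMP, TMPC against TM and the sites, where it called 36.8%, 0.111%, 43.5% and 40.5% of all genes. Fitting only the groups compared gave 33 and 41 in the comparisons of TMP and TMPC with TM (21.7% and 23.8% of all genes), and fitting all 12 libraries together gave 48 for the sites (29.6%). Other size factors (RLE) gave 42, 0, 44 and 45 (27.7%, 0.0%, 35.8% and 27.5% of all genes), and no filter 42, 0, 44 and 46 (19.0%, 0.0%, 26.5% and 19.2%). Total counts as library size gave 37, 0, 42 and 46 (25.6%, 0.0%, 34.4% and 28.1%) and put the median of all genes for the sites at 0.12. With a replicate block edgeR called 40, 0, 42 and 37 genes (19.8%, 0.0%, 28.1% and 11.8% of all genes), and Ddx56 (TMPC against TM), Gnl2, Rrp9 and Tsr1 (sites) lost their calls. Deviations of same-numbered libraries correlated between -0.226 and 0.275 and not all above 0.1 in any comparison, so the numbers were not taken to pair the tumours. In TMP against TM they were 0.231, 0.275 and 0.0836, against -0.289 to 0.217 for unlike numbers, so whether those tumours were paired is not known. Precision in every comparison rests on 3 libraries a group.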

Other observations

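Myc, named here after its values were seen, had 67.4, 94.2 and 163 CPM in orthotopic TMPC, 861, 798 and 898 CPM in subcutaneous TMPC, 1372, 575 and 478 CPM in TMP and 459, 80.6 and 459.5 CPM in TM tumours. TMP replicate 1 held the highest value and orthotopic replicate 1 the lowest. TM replicates 1 and 3 stood close to the lower TMP tumours in Myc. Their summed levels of the 48 genes were 5472 and 5446 CPM, and the TMP tumours' lowest was 9662 CPM. The part of Myc in the levels of the 48 genes was not tested.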
